A study of Mus musculus with 110 samples.

Results

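Loss of the cohesin subunit Rad21 with the control region IGCR1 left in place was represented by 12 of the 110 libraries in the series. Members were chosen by title: 6 libraries of the Rad21 degron line treated with the auxin indole-3-acetic acid (IAA) and 6 of the same line left untreated (NT), with titles of the IGCR1-deleted derivative excluded. Each group held 3 replicates, and each replicate held an a and a b library, so the replicate number was the unit. The cells were a v-Abl transformed pro-B line with the genotype Rad21degron, Emu-Bcl2 and RAG2 deficient. Both groups received RAG2 by nucleofection and 3 µM of the Abl kinase inhibitor STI-571 for 4 days, which arrests the cells and lets V(D)J recombination proceed. The IAA group received 500 µM IAA for 6 h beforehand and again together with STI-571. The labels name no OsTIR1 transgene for this line, the F-box protein through which auxin acts, and junction libraries hold no measure of Rad21 protein, so the depletion itself could not be checked here. Whether replicates came from separate cultures is not stated, so the tests measure only the spread between these samples.

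In a pro-B cell the heavy chain locus is assembled in order: a D segment is first joined to a JH segment, and a VH segment is then joined to the DJH product. The RAG endonuclease sits at the JH end, and chromatin is thought to be reeled past it by cohesin, a ring complex that extrudes DNA loops and of which Rad21 is a subunit. IGCR1 is a pair of sites for the insulator protein CTCF between the D array and the VH segments, and it holds back scanning beyond the D array. Linear-amplification translocation sequencing reads each joint from a bait primer at JH4 and gives the position and orientation of the prey. In plus orientation, a joint in the D array or VH region deletes the DNA between JH4 and the prey.

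The deposited positions are in coordinates of a hybrid of mm9 and another Igh sequence on chromosome 12. The prey segments that the results turn on are shown as they stand in mm9, on the coding (minus) strand, with the segment in capitals and the flanking recombination signal sequences, which RAG recognises, in lower case. Ighd4-1 (DQ52) is the D segment nearest JH, at hybrid position 114673089 and 2.0 kb from the JH4 end. Its window is chr12:114668711-114668777. Ighd1-1 (DFL16.1) stands at the far end of the main D array, at position 114734544 and 63.4 kb from JH4. Its window is chr12:114720353-114720431. The Ighj4 window, which serves as the bait end, is chr12:114666725-114666817.
Ighd4-1: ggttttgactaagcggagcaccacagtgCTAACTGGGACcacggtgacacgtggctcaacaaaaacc
Ighd1-1: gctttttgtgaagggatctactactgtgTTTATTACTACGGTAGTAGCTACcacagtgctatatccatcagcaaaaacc
Ighj4: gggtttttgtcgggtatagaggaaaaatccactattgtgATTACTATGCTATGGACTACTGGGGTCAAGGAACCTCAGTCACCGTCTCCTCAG

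The letters a and b corresponded to different bait sequences. The reads of an a and a b library of the same replicate most often began with the same bases and came from the same sequencing run. They differed in the stretch before JH4 that is in capitals. The bone marrow form of this stretch lies at chr12:114666670-114666697 on the plus strand of mm9.
a libraries: tcagaaaactccTcaaaggttaaaa
b libraries: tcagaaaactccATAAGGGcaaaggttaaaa
bone marrow: tcagaaaactccATAAcaaaggttaaaa
Between 97.5% and 99.2% of reads in the a libraries and between 95.9% and 97.9% in the b libraries of the 12 members carried the form of their own letter, and 0% carried the other. The a and b values of a replicate were averaged into 1 value. Whether they are readings of the same amplified sample split by bait form was not tested. The labels do not say what the letters stand for.

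The number of deposited junctions differed between the groups. The IAA replicates held 1263 to 2492 junctions and the NT replicates 25046 to 46510, so that the NT total was 20.4 times the IAA total. No totals of reads sequenced were available, so sequencing depth and the number of joins made cannot be told apart. Shares therefore describe relative use and not the absolute number of joins. The IAA and NT libraries of a replicate shared a sequencing run, and the 3 replicates came from 3 runs. Each per-replicate measure was compared by a two-sided exact permutation test, whose smallest p for 3 against 3 is 0.1, so no such measure could pass 0.05. In 37 of 48 measures (77.1%) the groups did not overlap, and every exact permutation p of 0.1 given here has a Benjamini-Hochberg value of 0.130 over these 48.

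With IAA, recombination from JH4 was concentrated at Ighd4-1. This segment took 58.1%, 61.9% and 50.05% of all junctions in the IAA replicates 1 to 3 and 12.7%, 16.7% and 14.1% in the NT replicates. The mean was 56.7% ± 6.04 (SD, n = 3) against 14.5% ± 2.04 (SD, n = 3), and every IAA replicate lay far above every NT replicate. Ighd1-1, the D segment most used without IAA, moved the other way. Its share was 2.85%, 5.39% and 6.72% with IAA and 45.5%, 43.1% and 48.2% without, a fall of 40.6 percentage points in the mean. The ratio of Ighd4-1 to Ighd1-1 junctions was 20.3, 11.5 and 7.87 in the IAA replicates and 0.279, 0.388 and 0.293 in the NT replicates. The exact permutation p was 0.1 for each of these measures.

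The D segments between those ends, mainly of the Ighd2 (DSP2) family, together took 14.9%, 21.0% and 29.0% of junctions with IAA and 37.6%, 36.2% and 33.5% without (exact permutation p = 0.1). Within runs the difference was −22.7, −15.2 and −4.48 points, so its size varied among replicates more than that of Ighd1-1, which was −42.7, −37.7 and −41.4 points. Among D junctions beyond Ighd4-1, Ighd1-1 made up 17.4%, 20.5% and 18.6% with IAA and 54.7%, 54.3% and 59.0% without (exact permutation p = 0.1). The fall at Ighd1-1 was thus also present when Ighd4-1 was left out of the denominator.

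**Figure D1:**
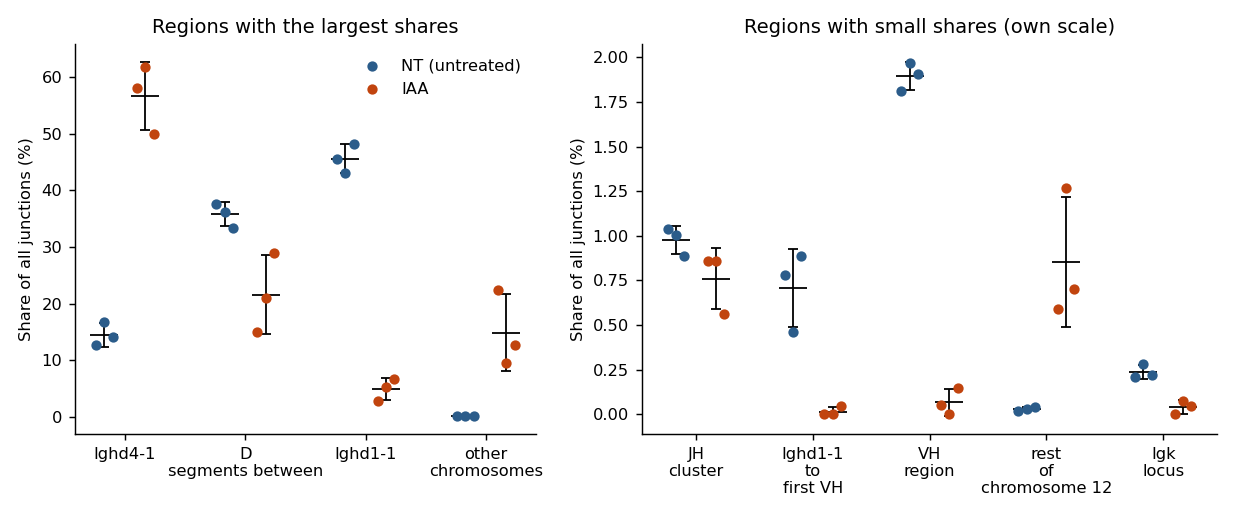
Share of all junctions (%) by region, 1 point per replicate, with the mean ± SD (n = 3 per group); the right panel has its own scale for regions with small shares. The IAA points at Ighd4-1 lie between 50.05% and 61.9%, above all NT points, while at Ighd1-1 and in the VH region all IAA points lie below all NT points.

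The reach of recombination along the locus was read from the distance between JH4 and each plus-orientation junction upstream of it. The median distance was 1.96 to 1.97 kb in the IAA replicates, which is the position of Ighd4-1, and 56.7 to 63.4 kb in the NT replicates. Junctions beyond 10 kb made up 23.9%, 29.9% and 41.7% with IAA and 87.1%, 83.0% and 85.7% without. Those beyond 50 kb made up 11.9% ± 4.49 (SD, n = 3) and 57.0% ± 2.12 (SD, n = 3). Beyond 100 kb, the IAA replicates held 0 of 1358, 0 of 1114 and 4 of 2150 such junctions, against a mean of 1.90% ± 0.0992 (SD, n = 3) without IAA. Beyond 200 kb the IAA replicates held 0, 0 and 1 junction, and the NT mean was 0.463%. The exact permutation p was 0.1 for the median and for each of these cut-offs.

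**Figure D2:**
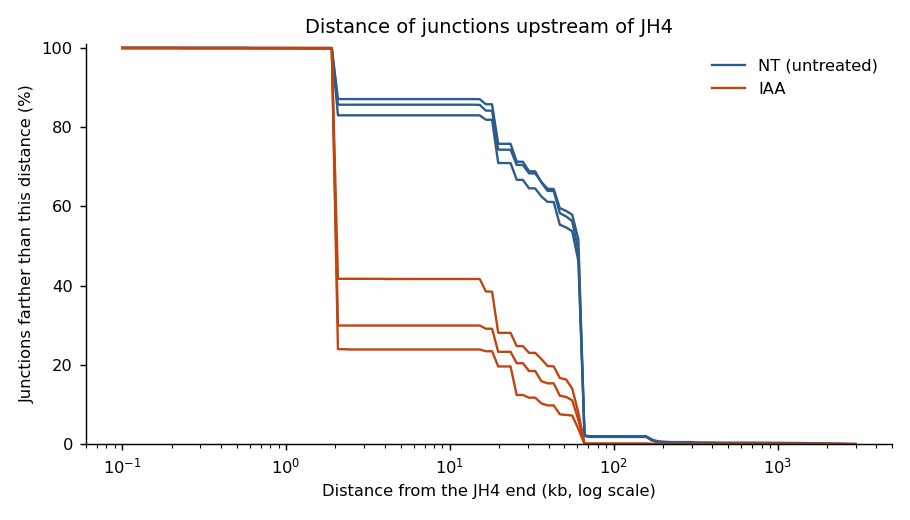
Share of upstream plus-orientation junctions (%) lying farther from the JH4 end than the distance on the log-scaled horizontal axis, 1 line per replicate. The IAA lines drop to between 23.9% and 41.7% at Ighd4-1 and to near 0 past Ighd1-1, while the NT lines are still at 83.0% to 87.1% at 10 kb and drop mainly at Ighd1-1.

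Single segments were tested with limma on tallied junctions, relative to all junctions of a library. Of 177 segments, 19 passed a mean of 10 junctions per replicate, and 12 of these (63.2%) were called at an adjusted p under 0.05. Ighd4-1 was the 1 segment called higher (5.26%), and 11 were called lower (57.9%). The log2 change over all 19 had a median of −1.19. The number called lower was 5, 6 and 6 without NT replicate 1, 2 or 3, with 17, 18 and 17 segments tested, and 11, 10 and 15 without IAA replicate 1, 2 or 3. Scaling the libraries by the median of ratios over segments moved the median log2 change to −0.06 and left 1 segment called higher and 3 lower, the latter being Ighd1-1, Ighv5-2 and the VH segment at 114846142.

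Ighd4-1 rose by a log2 change of 1.94 (SE 0.27, limma adjusted p = 3.94e-06), and Ighd1-1 fell by 3.23 (SE 0.46, limma adjusted p = 3.94e-06). At Ighd4-1 the tallies were 1029, 780 and 1249 junctions with IAA and 5897, 4178 and 5900 without. At Ighd1-1 they were 51, 68 and 170 against 21158, 10785 and 20160. Identical joints were common at both and in both groups. The Ighd4-1 junctions reduced to 444, 377 and 492 distinct ones with IAA, and to 1508, 1231 and 1516 without. The Ighd1-1 junctions reduced to 26, 39 and 102 distinct ones with IAA, and to 4117, 2944 and 4046 without.

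Of the 10 tested D segments between them, 3 were called lower and 7 did not pass the test. The 3 lie at positions 114710077 (38.95 kb from JH4), 114714725 (43.6 kb) and 114719358 (48.2 kb), with log2 changes of −1.36, −1.19 and −1.59. The limma adjusted p was 0.0141 at 114710077 and 0.0228 at 114714725. The first was closest in sequence to Ighd2-4 and the second to Ighd2-8. The third had Ighd1-1 as its closest mm9 match, at 79.0% identity. The segments that did not pass included Ighd3-2 at 16.5 kb, with a log2 change of −0.61 (SE 0.51, limma adjusted p = 0.270), and the segment at 114690286 (19.2 kb), with −0.92 (SE 0.46, limma adjusted p = 0.0834). The segment at 114695747 (24.6 kb) had the smallest change, at −0.26 (SE 0.47, limma adjusted p = 0.590). Its share was 5.52%, 2.53% and 2.89% with IAA, and 4.44%, 4.14% and 3.78% without, so the groups overlapped. The remaining 4 lay at 114700407, 114705399, 114723458 and 114727777, with log2 changes of −0.93, −0.52, −0.76 and −0.85.

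These changes share a denominator, which Ighd4-1 takes up in large part with IAA. When the 11 tested D segments beyond Ighd4-1 were instead scaled to their own sum, a scale chosen after seeing the data, Ighd1-1 had a log2 change of −1.58 (SE 0.25, limma adjusted p = 0.00637). On a scale closed to the sum of these segments a fall at Ighd1-1 raises the others, so their sign there is not a separate finding. On that scale 5 of 11 segments were called (45.5%), Ighd1-1 lower (9.09%) and 4 higher (36.4%). Those 4 lay at 114690286 (log2 change 0.92), 114695747 (1.41), 114705399 (1.33) and 114714725 (0.61). With identical junctions counted once, the segments at 114705399 (0.22, limma adjusted p = 0.394) and 114714725 (0.36, limma adjusted p = 0.135) lost their calls, and those at 114710077 and 114719358 were below 0, at −0.16 and −0.38. With the replicate number as a block, the segment at 114695747 lost its call (limma adjusted p = 0.0882). The number called higher was 2 without IAA replicate 2, 1 without NT replicate 1 and 2 without NT replicate 2. Ighd1-1 was called lower in each of these fits. Its fall was smaller with identical junctions counted once, at −0.97 (limma adjusted p = 0.00445). Ighd1-1 thus fell both against all junctions and against the D segments beyond Ighd4-1.

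**Figure D3:**
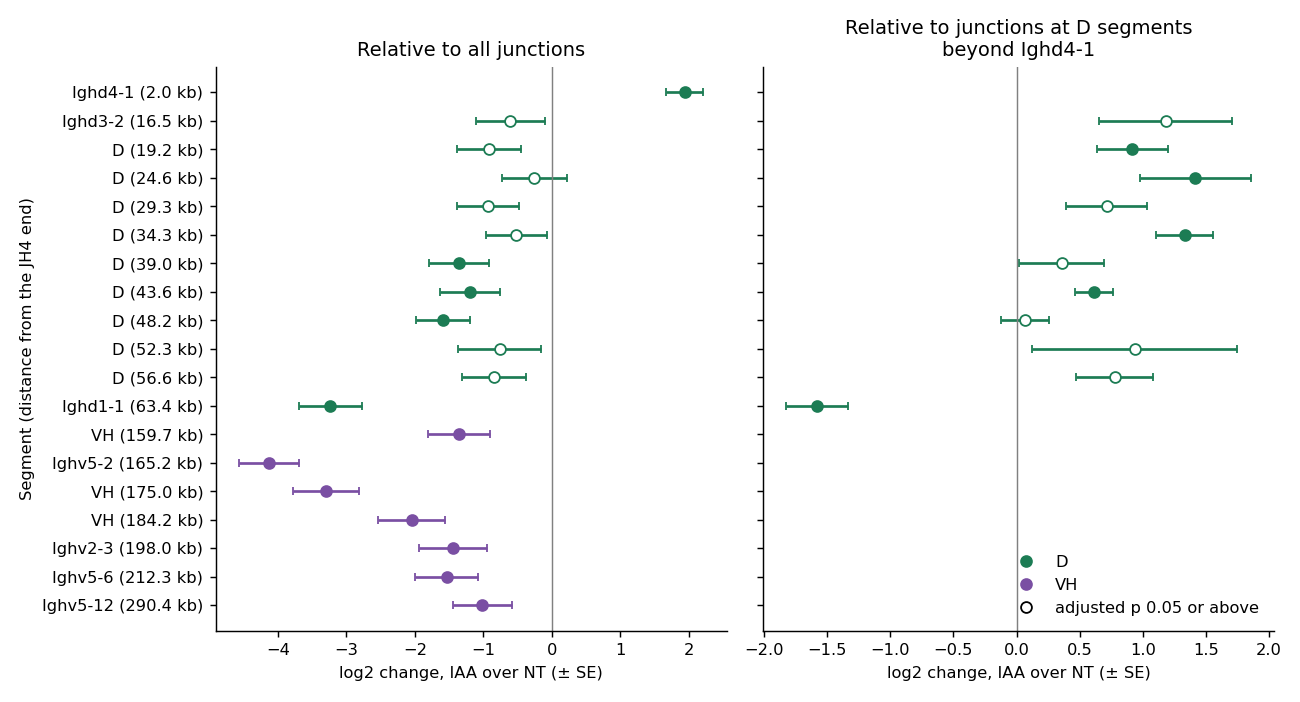
Log2 change with IAA (± SE, limma, n = 3 per group) of the 19 tested segments, ordered by distance from the JH4 end, relative to all junctions (left) and, for D segments beyond Ighd4-1, relative to the sum over them (right); filled points passed an adjusted p of 0.05. Ighd1-1 lies below 0 in both panels, at −3.23 and −1.58, and the segments between lie above 0 on the right, where the shared sum ties their sign to that of Ighd1-1; the left-hand values of VH segments with 0 or few IAA junctions rest on the 0.5 offset of the fit.

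VH joints were almost absent with IAA. The VH region held 1, 0 and 4 junctions in IAA replicates of 1811, 1263 and 2492, and 843, 493 and 800 in the NT replicates. At the mean NT share of 1.90%, the IAA totals would hold 34.4, 24.0 and 47.3. A count of 0 in replicate 2 allows a share of up to 0.238%, for counting error only. The 7 VH segments tested were among those called lower in the limma fit, but each passed the minimum through its NT junctions, since the IAA group had 0 junctions at 5 of them and 1 and 2 at the others. Their calls are therefore a description, with no support drawn from their number. With median-of-ratios scaling Ighv5-12 had a log2 change of 0.06 and the other 6 were below 0.

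Ighv5-2 (VH81X), the most used VH, at position 114836377 and 165.2 kb from JH4, is a D-proximal VH that pro-B cells are known to use often. It had 0, 0 and 2 junctions with IAA, both from replicate 3, and 392, 198 and 363 without. Over each group this is 2 of 5566 against 953 of 113444, a share 23.4-fold lower with an exact 95% interval of 6.45 to 193 for counting error. The limma log2 change was −4.13 (SE 0.44), which is a description, as for the other VH segments. The segment at 114846142 (closest to Ighv2-2) had 311 junctions without IAA and 0 with it, at least 5.09-fold lower when taking 3 junctions over the IAA group as the floor. On the same floor the segments at 114855361 and 114830805, with 134 and 76 NT junctions, were at least 2.19-fold and 1.24-fold lower. Ighv5-6 and Ighv5-12 had 0 junctions against 89 and 62, at least 1.46-fold and 1.01-fold lower. Ighv2-3 had 1 against 128, a share 6.28-fold lower with an interval of 1.11 to 250.

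The interval between Ighd1-1 and the first VH segment, which contains IGCR1, lost junctions as well. It held 0, 0 and 1 with IAA and 362, 116 and 371 without, or 0.779%, 0.463% and 0.886% of NT junctions (exact permutation p = 0.1). In the JH cluster the share was 0.861%, 0.858% and 0.561% with IAA and 1.04%, 1.003% and 0.886% without, a much smaller difference of −0.22 points (exact permutation p = 0.1). Of JH cluster junctions, 56.9% ± 22.9 (SD, n = 3) were in minus orientation with IAA and 93.9% ± 1.96 (SD, n = 3) without, from 39 IAA junctions in all.

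Minus orientation within the D array, which marks inversional or hybrid joints, was rare in both groups. It made up 1.04%, 0% and 0.0948% of D array junctions with IAA and 0.0785%, 0.04999% and 0.0623% without, so the groups overlapped (exact permutation p = 0.7). The mean of 0.378% with IAA rests on replicate 1, where 12 of the 14 such junctions came from the a library. At Ighd4-1 the 15 minus-orientation junctions of the IAA group reduced to 6 distinct ones. Without IAA replicate 1 the difference was −0.02 points.

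Joint structure was read at Ighd4-1 and Ighd1-1 from the bases between the bait and prey alignments. Bases shared by both ends appear as an overlap (microhomology), and bases matching neither end, such as those added by terminal transferase, appear as an insertion. The 2 most frequent Ighd4-1 joints with IAA and the most frequent Ighd1-1 joint are shown on the coding strand, from D to JH4, with the overlapping bases in capitals.
Ighd4-1 joint 1: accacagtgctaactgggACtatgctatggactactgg
Ighd4-1 joint 2: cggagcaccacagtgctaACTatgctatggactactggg
Ighd1-1 joint 1: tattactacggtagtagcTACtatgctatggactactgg
Joint 1 at Ighd4-1 keeps the whole D segment and shares 2 bases with JH4. It made up 5.21% of 3054 Ighd4-1 joints with IAA and 3.42% of 15939 without, and it was found in all 6 libraries of each group. Joint 2, with a 3-base overlap and 5 bases lost from the D end, made up 1.77% and 0.376%. Joint 1 at Ighd1-1 has a 3-base overlap and no loss from the D end, and it made up 8.997% of 289 joints with IAA and 3.28% of 51669 without. The next most frequent Ighd1-1 joint with IAA, not shown, had 1 inserted base. It made up 4.50% with IAA, from 2 libraries, and 0.0542% without. These shares pool the libraries of a group and were not tested. All these joints were picked by their number with IAA, which favours a higher share with IAA. No support for a group difference is drawn from them.

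With all rows counted, joints with overlap made up a larger share with IAA. At Ighd4-1 they made up 11.5%, 10.8% and 14.8% with IAA and 6.91%, 7.28% and 8.65% without, and the groups did not overlap (exact permutation p = 0.1). Insertions made up 75.8% ± 2.68 (SD, n = 3) and 82.5% ± 1.03 (SD, n = 3), and direct joints 11.8% ± 0.547 and 9.86% ± 0.188. At Ighd1-1 overlap was found in 19.0%, 34.2% and 25.8% of joints with IAA, from 51, 68 and 170 joints, and in 11.6%, 10.5% and 10.7% without (exact permutation p = 0.1). Insertions there made up 63.0% ± 5.68 and 80.9% ± 0.801, and direct joints 10.6% ± 1.96 and 8.20% ± 0.314. With identical junctions counted once, the Ighd4-1 overlap share was 6.39% with IAA and 4.23% without, the groups overlapped, and the exact permutation p was 0.2. Ighd1-1 had under 20 distinct joints in some IAA libraries, and the minimum was applied per library, so its overlap share was not measured that way. Over a and b together the IAA replicates held 26, 39 and 102 distinct Ighd1-1 joints. The part of repeated rows in the Ighd1-1 difference was thus not tested.

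The length of the changes at the joint differed little. Inserted stretches at Ighd4-1 had a mean of 3.27 ± 0.0706 bases with IAA and 3.44 ± 0.0369 without (SD, n = 3), and at Ighd1-1 2.91 ± 0.221 and 3.25 ± 0.0270. The Ighd4-1 end had lost 1.92 ± 0.232 bases with IAA and 2.27 ± 0.0951 without, and the JH4 end in the same joints 4.07 ± 0.314 and 4.55 ± 0.142. The Ighd1-1 end had lost 3.04 ± 0.474 and 4.23 ± 0.124. In all of these the groups did not overlap (exact permutation p = 0.1). The JH4 end in Ighd1-1 joints had lost 3.79 ± 0.964 and 4.78 ± 0.247 bases, and there the groups overlapped (exact permutation p = 0.3).

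**Figure D4:**
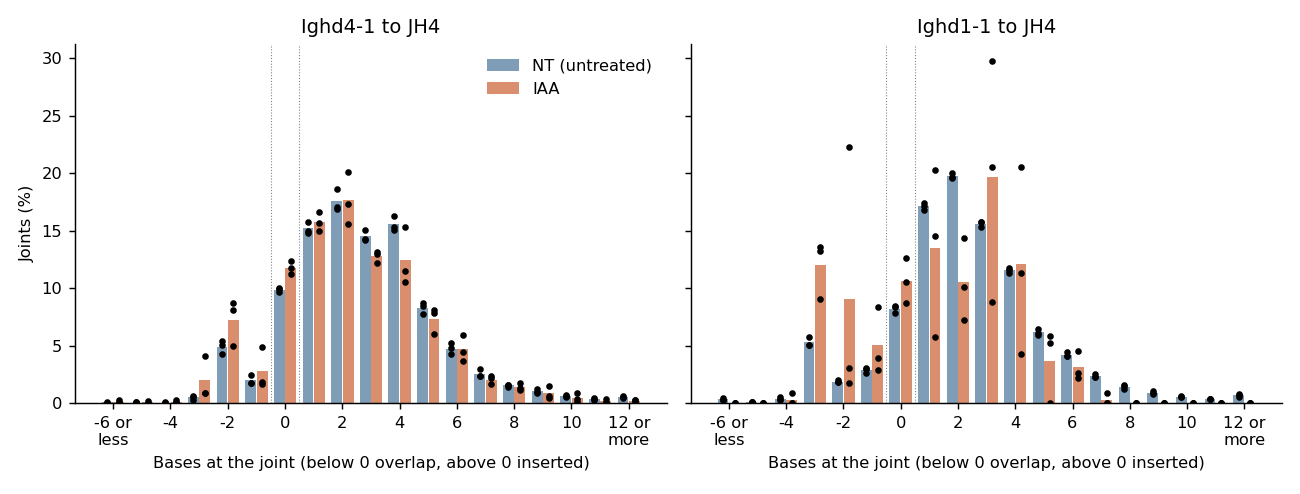
Distribution of joint length at Ighd4-1 and Ighd1-1 (% of joints by number of overlapping bases, below 0, or inserted bases, above 0); bars are means of 3 replicates and black points the replicates. Overlap joints sum to 12.4% with IAA and 7.61% without at Ighd4-1, and to 26.4% and 10.9% at Ighd1-1, where the IAA replicates scatter widely.

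Junctions outside the Igh locus also changed in share. Other chromosomes, the Igk locus apart, took 22.5%, 9.55% and 12.7% of junctions with IAA and 0.157%, 0.187% and 0.189% without (exact permutation p = 0.1). In numbers these were 413, 121 and 311 junctions with IAA and 73, 47 and 79 in the NT replicates, which held more junctions in total. The rest of chromosome 12 took 0.853% ± 0.364 (SD, n = 3) and 0.0297% ± 0.00973 (SD, n = 3). The Igk locus, the light chain locus that is a known partner of Igh joints made by RAG, went the other way. It held 0, 1 and 1 junctions with IAA and 98, 71 and 93 without, a mean of 0.0403% against 0.238% (exact permutation p = 0.1). The 845 junctions on other chromosomes with IAA reduced to 771 distinct ones on 20 chromosomes, and the chromosome with the most held 9.23% of them.

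These junctions differed from those at Igh in where the bait ended. On chromosome 12 the bait ended within 20 bp of the JH4 end in 98.4% ± 0.166 (SD, n = 3) of junctions with IAA and 97.6% ± 0.549 (SD, n = 3) without. On other chromosomes this was 27.8% ± 2.94 with IAA and 27.3% ± 6.53 without, and the groups overlapped (exact permutation p = 1). Overlapping bases were found in 82.2%, 89.1% and 84.1% of the other-chromosome junctions with IAA and 40.2%, 60.3% and 27.6% without, against 16.3% and 9.53% on chromosome 12. When only junctions with a bait end within 20 bp of JH4 were counted, an alternative added after seeing the data, other chromosomes took 4.63% with IAA and 0.04865% without, and Ighd4-1 took 64.3% and 14.7%. The IAA share on other chromosomes thus fell with that filter, and remained above that of NT in every replicate.

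**Figure D5:**
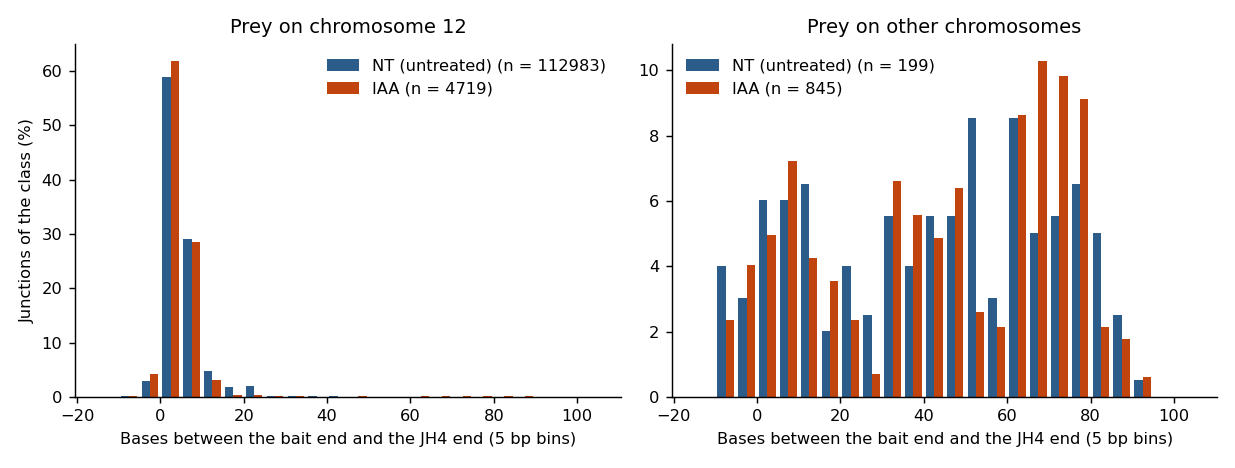
Bases between the bait end and the JH4 end (5 bp bins) for prey on chromosome 12 and on other chromosomes, as a share (%) of the junctions of each class pooled over the 6 libraries of a group. On chromosome 12 the bait ends cluster at JH4 in both groups, and on other chromosomes they spread over the bait in both.

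Repeated joints were fewer with IAA. Rows that repeat an earlier row of the same library in prey position, orientation, bait end and joint length made up 44.1%, 43.5% and 45.7% with IAA and 66.6%, 59.98% and 66.5% without (exact permutation p = 0.1). The total number of junctions moves with the groups here, and its part in this difference was not tested. The files hold no molecular identifiers, so that repeats of one amplified molecule and independent identical joints cannot be told apart.

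The IAA effect was set against that in other lines of the series by an interaction term in limma. None of the lines compared shared a sequencing run with the libraries of the Rad21 degron line with IGCR1 intact. Parental replicates 1 and 2 came from different runs with and without IAA, so run and IAA cannot be told apart in them. In the parental line, without a degron, 16 of 25 tested segments (64.0%) differed in IAA effect from the Rad21 degron line. The log2 change with IAA in the parental line was 0.01 at Ighd4-1, −0.21 at Ighd1-1 and −0.01 at Ighv5-2. The differences at Ighd4-1 and Ighd1-1 were 1.94 (SE 0.28) and −3.07 (SE 0.29), with limma adjusted p of 1.95e-05 and 1.21e-07. At Ighv5-2 the difference was −4.11 (SE 0.46), but the Rad21 degron line had 0, 0 and 2 junctions there with IAA. That value depends on the offset of the fit and is a description. In the line with OsTIR1 only, 13 of 20 segments (65.0%) differed. The log2 changes with IAA there were 0.03 at Ighd4-1, −0.14 at Ighd1-1 and −0.40 at Ighv5-2. The calls against both lines include VH segments at which the Rad21 degron line had 0 to 2 junctions with IAA. Those passed the minimum through other groups, so no support is drawn from the number called.

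Against the Rad21 degron line with IGCR1 deleted, 7 of 18 segments (38.9%) differed in IAA effect. The effect at Ighd4-1 was a log2 change of 1.93 with IGCR1 intact and 1.99 with it deleted, a difference of −0.06 (SE 0.19, limma adjusted p = 0.849). At Ighd1-1 it was −3.20 and −3.23, a difference of 0.03 (SE 0.42, limma adjusted p = 0.951). At Ighv5-2 it was −4.12 and −3.11, a difference of −1.01 (SE 0.46, limma adjusted p = 0.0736). With identical junctions counted once that difference was −2.42 (limma adjusted p = 6.58e-05), and with median-of-ratios scaling it was 0.091 (limma adjusted p = 0.843). With IGCR1 intact the effect at Ighv5-2 rests on 2 IAA junctions, both from replicate 3, and on the offset of the fit. No conclusion is drawn from these differences at Ighv5-2. Of the D segments between, 5, at 114690286, 114700407, 114714725, 114719358 and 114727777, had a lower IAA effect with IGCR1 intact, with differences of −1.08 to −1.87. With median-of-ratios scaling these were −0.40, −0.38, −0.17, −0.86 and −0.14 in that order, and none was called (limma adjusted p of 0.351 to 0.651). The segment at 114719358 had only 2, 3 and 7 IAA junctions with IGCR1 intact. The other two segments called had 0 junctions with IAA in the Rad21 degron line, so their fitted effect is not measured there. With median-of-ratios scaling 4 of 18 tested segments were called, all higher. Among them was Ighd4-1, with a difference of 1.25 (limma adjusted p = 0.0162), so the result at Ighd4-1 depended on the scaling. The others were Ighd3-1 and the VH segments at 114830805 and 114855361, each with 0 IAA junctions with IGCR1 intact. At Ighd1-1 the difference on that scale was 0.84 (limma adjusted p = 0.131). With identical junctions counted once, 13 of 17 tested segments were called, 1 higher and 12 lower. The IGCR1-deleted line had b libraries only.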

How the data were processed

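Per the labels, reads were aligned to a hybrid of mm9 and another Igh sequence; the submitters' processing notes name Bowtie2, and its version, the junction filters and the hybrid itself were not given in the sources used here. The deposited files list 1 junction read per row and hold no counts or normalized values. Positions in a and b libraries were shifted by 3 bases in opposite directions to match bone marrow. Segments were peaks of plus-orientation junctions matched with blastn 2.17.0 to mm9 V and D segments, and junctions within 100 bp were assigned to them; symbols came from RefSeq synonyms. Shares use all rows of a file. Identical rows were kept. Shares were compared by exact permutation over replicates, and segments with R 4.3.3 and limma 3.58.1 (voom, offset 0.5, a and b summed, minimum mean of 10 junctions, Benjamini-Hochberg adjusted p under 0.05). On simulated tallies of the 19 segments with 4-fold changes, 85.9% were recovered and 8.19% of calls were false. The simulation used shares averaged over both groups, a preset spread and totals that stayed fixed when segments changed. The shared denominator of the data was thus not simulated, and the rates hold for those settings only. Every segment past the minimum is named, and Ighd4-1, Ighd1-1 and Ighv5-2 are given in full. Members and lists were chosen with earlier results of these data known. The IAA label is missing from 1 IGCR1-deleted library titled IAA, and the title was followed.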

Additional observations from a re-analysis of the deposited data

Results flagged for a closer look

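The results here were picked out because the effect of IAA differed between lines by limma's interaction term (adjusted p under 0.05). Against the parental line the log2 difference of the IAA effect was 1.94 at Ighd4-1, −3.07 at Ighd1-1 and −4.11 at Ighv5-2. Against the line with OsTIR1 only it was 1.94, −3.15 and −3.73 at the same segments. Against the IGCR1-deleted Rad21 degron line it was −1.42 at the D segment at 114690286, −1.49 at 114700407, −1.08 at 114714725, −1.87 at 114719358 and −1.10 at 114727777. With median-of-ratios scaling these 5 differences were −0.40, −0.38, −0.17, −0.86 and −0.14, and none was called. The differences at Ighv5-2 rest on 0, 0 and 2 IAA junctions in the Rad21 degron line and depend on the offset of the fit. The difference at 114719358 rests on 2, 3 and 7 IAA junctions with IGCR1 intact. Groups of 3 replicates were not examined for outlying samples.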

How the results depend on the processing

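Of 446 alternative values of the 35 per-replicate measures reported, 7 changed sign. Without IAA replicate 1 the minus-orientation difference in the D array was −0.016 points, against 0.503 at the other extreme of leaving out 1 replicate. The bait-end difference on other chromosomes was −0.155 points with identical junctions counted once, −0.791 with b libraries only, −0.0112 with a and b summed, and from −3.11 to 3.26 with 1 replicate left out. The difference in direct joints at Ighd1-1 was −1.75 points with a libraries only. Ighd4-1, Ighd1-1 and Ighv5-2 kept their direction and their limma call in all 17 alternatives. Ighv5-2 passed the minimum through its NT junctions, so its calls are a description.

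The count of lower segments was 3 of 19 with median-of-ratios scaling, 6 of 14 with a minimum mean of 30 junctions and 7 of 19 with a pseudocount of 1. It was 17 of 18 with identical junctions counted once, 6 of 16 with a or with b libraries only, and 5 to 15 with 1 replicate left out. With no minimum 85 of 116 segments were called higher, 81 of them with 0 IAA junctions. The change of those 81 comes from the fixed offset in the group with fewer junctions. Median-of-ratios scaling turned the log2 change to 0.61 at Ighd3-2, 0.13 at D_114690286, 0.95 at D_114695747, 0.19 at D_114700407, 0.63 at D_114705399, 0.69 at D_114723458, 0.22 at D_114727777 and 0.062 at Ighv5-12. With 1 replicate left out it ran from −1.29 to 0.049 at Ighd3-2 and from −1.62 to 0.28 at D_114723458. On the scale of the D segments beyond Ighd4-1, 1 segment was higher with b libraries only and 1 to 6 with 1 replicate left out; the change at D_114719358 was −0.38 and at D_114710077 −0.16 with identical junctions counted once, and at D_114719358 −0.018 with the replicate block and between −0.056 and 0.17 with 1 replicate left out.

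Against the IGCR1-deleted line 13 of 17 segments were called with identical junctions counted once and 4 of 18 with median-of-ratios scaling. There the difference at Ighd4-1 was 0.042 with identical junctions counted once and 1.25 (called) with median-of-ratios scaling. At Ighd1-1 the difference was −0.33 and 0.84 in the same order, and neither was called. At Ighv5-2 the difference was −2.42 (called) and 0.091, and it rests on 2 IAA junctions with IGCR1 intact. Median-of-ratios scaling gave 6 calls among 25 segments against the parental and 4 among 20 against the OsTIR1-only line. The causes were not tested.

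Same-numbered replicates did not deviate together (r over 19 segments −0.26, 0.37 and 0.24). With the replicate block, 1 segment was higher and 9 lower, and the smallest exact sign-flip p over 3 pairs is 0.25. The low total of IAA junctions limits the VH segments, at which the IAA group had 0 to 2 junctions each.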
